A study of Mus musculus with 35 samples.

Results

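The 9 genes described here encode the enzymes that write DNA methylation in the mouse and those that remove it. They are the maintenance methyltransferase Dnmt1 and its recruiting partner Uhrf1, the de novo methyltransferases Dnmt3a and Dnmt3b with their catalytically inactive cofactor Dnmt3l, the methylcytosine dioxygenases Tet1, Tet2 and Tet3, and the thymine DNA glycosylase Tdg. The genes were taken by symbol from a table of transcript levels of 54446 genes, and 9 of the 9 symbols asked for were found. Levels are given as TPM (a read count divided by transcript length and scaled to the same total in every library), so they can be compared between genes. The table covered 27 bulk RNA libraries, 3 in each of 9 groups. Of the series' 35 samples, 8 were not analysed here.

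DNA methylation sits mostly on the cytosine of CG dinucleotides. After replication only the parental strand carries the mark, Uhrf1 binds such hemimethylated sites and brings Dnmt1 to copy the pattern, while Dnmt3a and Dnmt3b place methyl groups on unmodified DNA. Tet enzymes oxidise 5-methylcytosine, and Tdg excises the most oxidised forms so that repair can put back an unmodified cytosine. In the mouse embryo the genome is poorly methylated in the blastocyst and is methylated again around implantation, when the naive inner cell mass (ICM) becomes the epiblast, the tissue that gives rise to the body.

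The in vivo libraries came from embryos of wild-type CD-1 or Pdgfrα:H2B-GFP reporter mice, with sexes not separated and several embryos pooled per library. The reporter line was used at E4.5 to tell epiblast from primitive endoderm. They comprised E3.5 ICM (isolated by laser dissection), E4.5 epiblast (immunosurgery followed by picking of GFP-negative cells) and the epiblast at E5.5, at E6.5 and at E7.5, freed by hand from visceral endoderm and extraembryonic ectoderm, with the allantois also removed at the last stage. The in vitro libraries came from 4 culture states, and the cultures made from ESCs were of wild-type cells. Epiblast-like cells (EpiLCs) were embryonic stem cells (ESCs) kept for 48 h in medium with FGF2 and Activin-A, and 2D epiblast stem cells (EpiSCs) were ESCs converted in the same factors on fibronectin. The ESC-derived and the embryo-derived 3D EpiSCs both grew in Matrigel in FAXN medium, which holds bFgf2, Activin-A, the tankyrase inhibitor XAV939 and the BMP antagonist Noggin. The embryo-derived line started from E5.5 epiblasts of wild-type CD1 or LifeAct-GFP reporter mice. Medium and dimension therefore changed together between 2D and 3D, and origin and genetic background changed together between both kinds of 3D culture, so neither pair can be told apart. Embryo-derived 3D EpiSCs differed from 2D EpiSCs in medium, dimension, origin and genetic background at once. Both kinds of 3D EpiSC differed from EpiLCs in medium and dimension at once, and the embryo-derived ones in origin and genetic background too. All EpiSCs were passaged cultures while EpiLCs were kept for 48 h, so culture state and time in culture cannot be told apart in those comparisons. Nothing in the labels says that replicates were separate cultures or litters, and the p-values measure only the spread between these samples.

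In vivo libraries were made from total RNA with ribosomal RNA removed and in vitro libraries from poly-A RNA, so the 2 sets were fitted separately and their levels are given side by side without a test. RNA was fragmented for 6 min at 85 °C for E3.5 and E4.5 and for 4 min at 94 °C for E5.5 to E7.5. The step from E4.5 to E5.5 therefore cannot be told apart from the change in fragmentation. The way of isolating the tissue changed at that step and from E3.5 to E4.5, with the reporter line used at E4.5, and cannot be told apart from stage either. Genes above 0 TPM numbered between 20324 and 26751 per in vivo library and between 22215 and 24438 per in vitro library, and read depth is not known from TPM. In vitro, 3 replicate pairs were nearly identical (ESC-derived 3D EpiSC replicates 1 and 2, embryo-derived 3D EpiSC replicates 2 and 3, and 2D EpiSC replicates 1 and 2). Averaging each such pair left 9 libraries and ended 1 of the members' calls, named below.

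Markers of the epiblast were above 1 TPM in every group, with 4 of 4 genes present. Their summed level was 820 to 855 TPM at E3.5, 647 to 684 at E4.5, 962 to 1055 at E5.5, 931 to 1030 at E6.5 and 292 to 316 at E7.5. Genes of primitive and visceral endoderm were also present in the embryo libraries. Their sum was 707 to 733 TPM at E3.5, 229 to 262 at E4.5, 723 to 766 at E5.5, 1088 to 1139 at E6.5 and 1152 to 1178 at E7.5, with all 9 genes above 1 TPM from E5.5 to E7.5. Trophectoderm and extraembryonic ectoderm genes, 8 in number, summed to 467 to 494 TPM at E3.5 and 461 to 477 at E4.5 but to 17.5 to 19.7 at E5.5, 33.7 to 40.9 at E6.5 and 155 to 172 at E7.5. Mesoderm genes were at most 1.99 TPM in sum at E3.5 and E4.5 and reached 241 to 259 TPM at E7.5. These tissues are bulk samples, in which fewer cells of a type and less RNA per cell cannot be told apart, and the part of these other cell types in the levels below was not tested.

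The DNA just upstream of the start sites is shown for the 3 members whose stage means spanned the widest range in vivo, because CG dinucleotides are the substrate of the enzymes these genes encode. Each run holds the 250 bases before a RefSeq start site (GRCm38.p6), 5′ to 3′ on the gene's own strand, in lower case with every CG in capitals. Dnmt3b lies on chr2:153649199-153649448 (plus strand), Tet2 on chr3:133544391-133544640 (minus strand), and the 3 Dnmt3l starts on chr10:78042037-78042286, chr10:78049592-78049841 and chr10:78055085-78055334 (plus strand).
Dnmt3b: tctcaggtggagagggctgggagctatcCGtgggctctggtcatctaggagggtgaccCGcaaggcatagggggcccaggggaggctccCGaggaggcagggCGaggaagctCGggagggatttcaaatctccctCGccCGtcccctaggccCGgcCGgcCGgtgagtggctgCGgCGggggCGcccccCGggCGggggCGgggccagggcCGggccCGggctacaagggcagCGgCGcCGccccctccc
Tet2: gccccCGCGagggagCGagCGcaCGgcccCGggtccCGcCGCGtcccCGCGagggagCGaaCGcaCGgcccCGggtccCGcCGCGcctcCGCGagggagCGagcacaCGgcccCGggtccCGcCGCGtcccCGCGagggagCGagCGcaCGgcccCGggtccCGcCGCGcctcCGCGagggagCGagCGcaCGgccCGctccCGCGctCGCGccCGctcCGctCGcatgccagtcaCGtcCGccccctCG
Dnmt3l, first start: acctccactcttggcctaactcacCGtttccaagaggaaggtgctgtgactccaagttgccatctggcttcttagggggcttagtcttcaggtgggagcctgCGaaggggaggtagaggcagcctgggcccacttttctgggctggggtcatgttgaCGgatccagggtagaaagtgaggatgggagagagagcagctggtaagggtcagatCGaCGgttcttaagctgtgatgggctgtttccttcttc
Dnmt3l, second start: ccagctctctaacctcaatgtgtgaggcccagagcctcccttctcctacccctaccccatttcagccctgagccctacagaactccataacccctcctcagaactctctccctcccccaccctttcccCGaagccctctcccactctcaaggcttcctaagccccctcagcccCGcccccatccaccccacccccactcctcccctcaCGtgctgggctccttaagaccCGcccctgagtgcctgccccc
Dnmt3l, last start: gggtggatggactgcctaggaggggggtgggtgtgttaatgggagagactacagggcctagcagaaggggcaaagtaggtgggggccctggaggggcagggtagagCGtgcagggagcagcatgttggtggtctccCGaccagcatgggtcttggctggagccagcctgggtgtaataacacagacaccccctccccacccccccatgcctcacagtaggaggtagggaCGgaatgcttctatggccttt

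The Tet2 stretch held 51 CGs, more than 99.93% of the 32851 promoters in the same table, and the Dnmt3b stretch held 21, more than 83.65% of them. The 3 starts of Dnmt3l held 5, 4 and 3 CGs against a median of 6 over all promoters, of which 92.13% have at least 1. Searched on both strands, the GC box letters GGGCGG occurred 3 times upstream of Dnmt3b, 2 times at the second Dnmt3l start, once upstream of Tet2 and not at the other Dnmt3l starts, and 32.74% of all promoters contain them. These are counts of letters in a fixed window and say nothing about which factor binds there.

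Both maintenance genes were well expressed at every embryonic stage, and the stage means of Dnmt1 spanned 2.04-fold, lowest at E3.5 and highest at E7.5. Dnmt1 (ENSMUSG00000004099.16, chromosome 9, 20907209 to 20959888, minus strand, mm10) measured 85.2, 79.8 and 87.5 TPM in the 3 E3.5 libraries, 103, 102 and 89.0 at E4.5, 148, 155 and 142 at E5.5, 146, 159 and 135 at E6.5, and 180.0, 161 and 174 at E7.5. Every library from E5.5 onward was above every library of the blastocyst stages, and only E5.5 and E6.5 overlapped among neighbouring stages. The change from E4.5 to E5.5 was 0.60 ± 0.09 on the log2 scale (SE, adjusted p = 5.83e-05, limma), below the 2-fold limit set for a call. Here and below a gene is said to have risen or fallen when its adjusted p was below 0.05 and its change was above 1 on the log2 scale, with changes computed as differences of log2(TPM + 1). Folds of a change are therefore on the TPM + 1 scale, and at low levels they are smaller than the ratio of the TPM values.

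Uhrf1 (ENSMUSG00000001228.14, chromosome 17, 56303321 to 56323486, plus strand), which reads hemimethylated CGs, stayed within a range of 1.54-fold between its stage means, from 168 ± 13.3 TPM at E4.5 to 258 ± 1.62 TPM at E7.5 (SD, n = 3). The E7.5 libraries at 257, 258 and 260.2 TPM lay above all others, of which the highest was 229 TPM at E6.5. From E6.5 to E7.5 the log2 differences were 0.21 for Uhrf1 and 0.23 for Dnmt1, and with libraries rescaled by median-of-ratios factors both took the other sign, at -0.17 and -0.15. That rescaling matters at this step because the median of all tested genes was itself 0.31 higher at E7.5 than at E6.5 on the log2 scale. The ratio of Uhrf1 to Dnmt1 within a library, which no scaling can alter, was 1.11 ± 0.08 on the log2 scale at E3.5 and 0.78 ± 0.18 at E4.5, and then 0.57, 0.61 and 0.59 at E5.5, E6.5 and E7.5.

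The de novo methyltransferase Dnmt3b (ENSMUSG00000027478.15, chromosome 2, 153649450 to 153687730, plus strand) was lower on either side of a peak at E5.5 and E6.5. It was abundant there too, ranking 179 at E3.5, 183 at E4.5 and 208 at E7.5 by mean level among 11880 tested genes. It measured 428, 427 and 416 TPM at E3.5 and 468, 409.7 and 432 TPM at E4.5, 2 stages that overlapped. At E5.5 the 3 libraries stood at 2104, 2242 and 2200.0 TPM, and at E6.5 at 1799.6, 1676 and 1452 TPM. The rise into E5.5 was 5.00-fold (log2 2.32 ± 0.09, adjusted p = 5.33e-11, limma), and it placed Dnmt3b 15th by mean level among the 11880 genes tested in vivo. At E7.5 the libraries were back at 464, 464 and 485 TPM, overlapping those of E4.5. Dnmt3b fell by 3.47-fold between E6.5 and E7.5 (log2 -1.80 ± 0.09, adjusted p = 2.29e-09, limma), when the summed mesoderm markers went from 127 to 167 TPM up to 241 to 259 TPM. At the same step the epiblast marker sum went from 931 to 1030 TPM down to 292 to 316 TPM, with 3 of 4 markers called lower and a median log2 change of -1.55, and the part of either in the Dnmt3b fall was not tested.

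Dnmt3a (ENSMUSG00000020661.15, chromosome 12, 3806007 to 3914443, plus strand), the other catalytically active de novo enzyme, had its highest level at the same stage with a smaller swing. Its libraries read 123, 108 and 123 TPM at E4.5, 242, 252 and 209 at E5.5, 159, 160.5 and 132 at E6.5, and 83.8, 92.4 and 82.1 at E7.5, with no overlap between these stages. From E4.5 to E5.5 the difference was 0.98 ± 0.10 on the log2 scale (adjusted p = 2.26e-06, limma), just under the limit, and it came to between 1.01 and 1.06 without E4.5 replicate 1, E4.5 replicate 3 or E5.5 replicate 3. Over the 2 days from E5.5 to E7.5 Dnmt3a fell by 2.69-fold (log2 -1.43 ± 0.10, adjusted p = 1.2e-07, limma). E3.5 libraries, at 98.8, 108 and 109 TPM, overlapped those of E4.5.

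Dnmt3l (ENSMUSG00000000730.13, chromosome 10, 78041947 to 78063622, plus strand), which stimulates Dnmt3a and Dnmt3b without having activity of its own, was high at the stages before Dnmt3b reached its peak. It stood at 256, 263 and 256 TPM at E3.5 and at 290.4, 288 and 297 TPM at E4.5, above Dnmt3a and below Dnmt3b at both stages. At E5.5 it had fallen by 16.4-fold, to 16.1, 16.2 and 18.2 TPM (log2 -4.04 ± 0.16, adjusted p = 8.45e-11, limma). It measured 10.0, 8.80 and 13.9 TPM at E6.5 and 0.920, 0.845 and 1.75 TPM at E7.5, a further fall of 5.49-fold on the TPM + 1 scale (log2 -2.46 ± 0.16, adjusted p = 3.93e-08, limma). The fall into E5.5 moved together with the trophectoderm gene sum (461 to 477 TPM down to 17.5 to 19.7) and with that of the naive pluripotency genes (402 to 434 TPM down to 21.9 to 23.9), and the part of either was not tested. Aire, which overlaps Dnmt3l on the opposite strand, was listed at 28.4, 27.1 and 29.2 TPM at E4.5, and since the strand setting of the counting is not stated, reads in the overlap are uncertain.

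**Figure D1:**
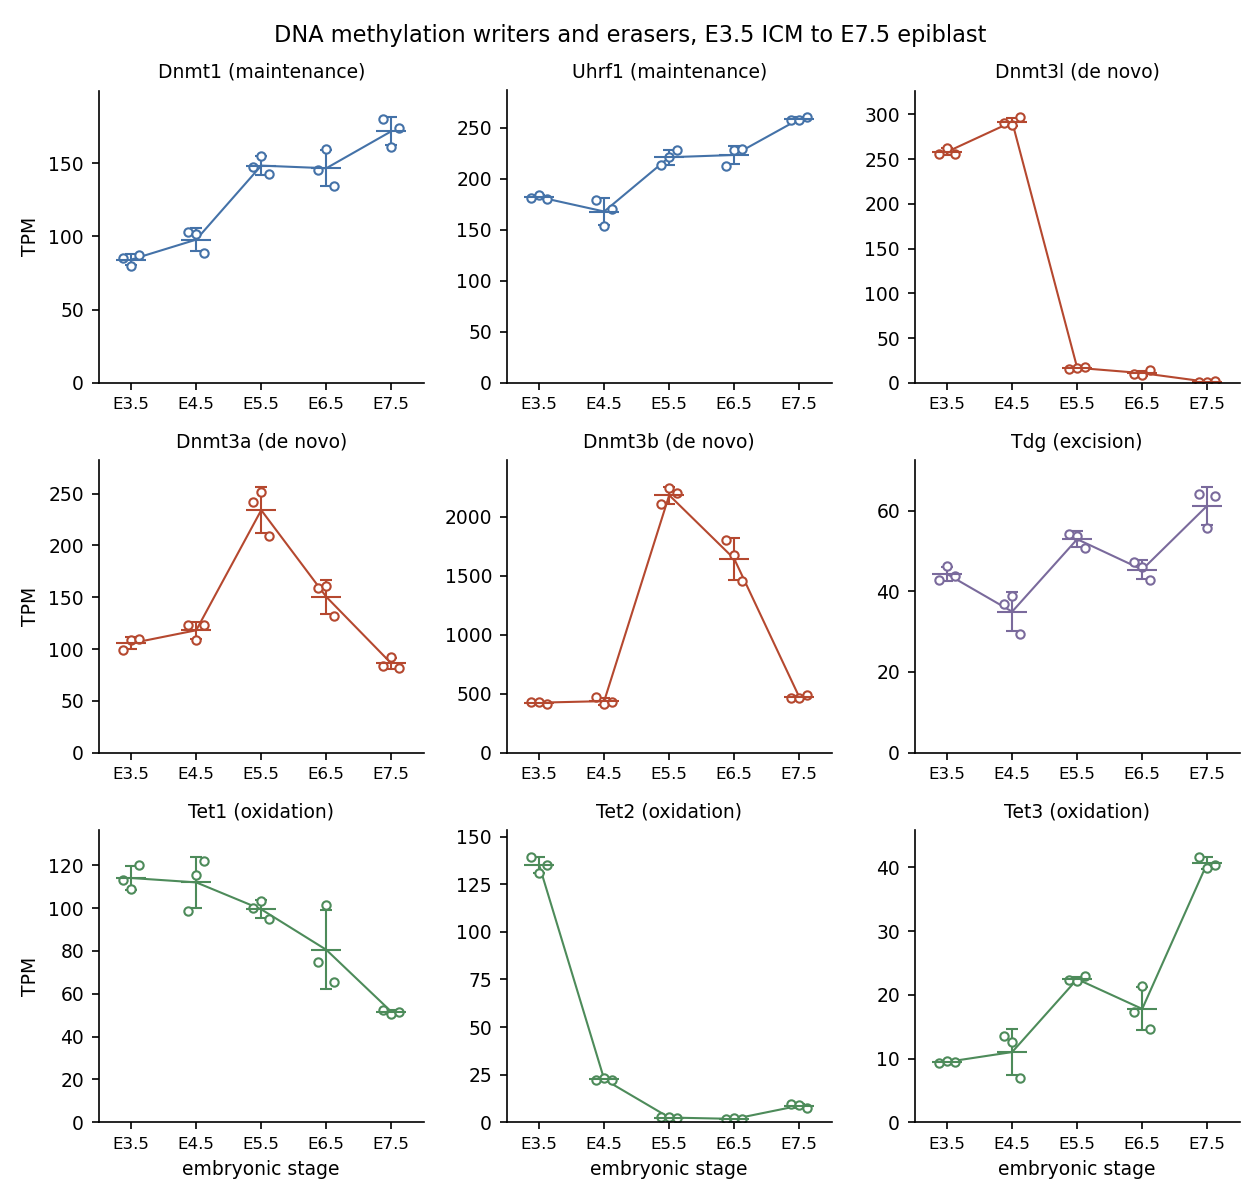
TPM of the 9 members (vertical axis from 0, 1 panel per gene) in the 15 in vivo libraries by embryonic stage, with points for libraries, a bar and whiskers for mean ± SD of 3 and a line joining the means. Dnmt3b peaks at E5.5 (2182 TPM) while Dnmt3l drops from 292 TPM at E4.5 to 16.8 TPM, and Tet2 goes from 135 TPM at E3.5 through 22.6 TPM at E4.5 to 1.81 TPM at E6.5 and 8.75 TPM at E7.5.

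Of the 3 Tet genes, Tet1 (ENSMUSG00000047146.17, chromosome 10, 62804570 to 62908996, minus strand) was the steadiest in the embryo. It measured 113, 109 and 120.3 TPM at E3.5 and its neighbouring stages overlapped as far as E6.5, where the libraries spread over 74.9, 101 and 65.5 TPM. At E7.5 they sat close together at 52.6, 50.8 and 51.6 TPM, below every earlier library. The differences at E7.5 were -0.61 ± 0.13 from E6.5 (adjusted p = 0.00179, limma) and -0.93 ± 0.13 from E5.5 (adjusted p = 6.77e-05, limma), neither past the limit. With median-of-ratios scaling the second of these was -1.23.

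Tet2 (ENSMUSG00000040943.12, chromosome 3, 133463679 to 133545139, minus strand) changed most among the Tet genes. The E3.5 libraries held 139.5, 131 and 135 TPM, above Tet1 in each library. Tet2 fell by 5.77-fold to 22.4, 23.1 and 22.3 TPM at E4.5 (log2 -2.53 ± 0.10, adjusted p = 1.42e-10, limma). It fell by a further 6.74-fold to 2.75, 2.71 and 2.09 TPM at E5.5 (log2 -2.75 ± 0.10, adjusted p = 3.31e-11, limma), both folds on the TPM + 1 scale. Across the first of these steps the sum of the primitive and visceral endoderm genes went from between 707 and 733 TPM to between 229 and 262 TPM. The trophectoderm sum was nearly level (467 to 494 against 461 to 477 TPM), but its genes were not. Of 6 tested, 4 were called higher and 2 lower, against 5.88% and 11.9% of all genes. Their median log2 change was 1.47, beside -0.10 for all genes. The part of either list in the Tet2 fall was not tested. Tet2 then rose from 1.70, 2.01 and 1.71 TPM at E6.5 to 9.51, 9.14 and 7.61 TPM at E7.5, by 3.46-fold on the TPM + 1 scale (log2 1.79 ± 0.10, adjusted p = 7.61e-09, limma). Over the alternatives this difference ran from 1.47 to 2.21.

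Tet3 (ENSMUSG00000034832.15, chromosome 6, 83362373 to 83459084, minus strand), the form best known from the zygote and from neurons, was the one whose level went up over the series. Its mean was 9.49 ± 0.206 TPM at E3.5 and 11.0 ± 3.56 at E4.5, where replicate 3 read 6.95 against 13.5 and 12.6 TPM. The E5.5 libraries, at 22.3, 22.1 and 22.9 TPM, were above all of these and Tet3 was called as risen by 2.02-fold (log2 1.01 ± 0.18, adjusted p = 0.000303, limma). That call rests on the limit itself. It was lost with median-of-ratios scaling (0.88), without E4.5 replicate 3 (0.74) and without E5.5 replicate 3 (1.00). From 17.4, 21.4 and 14.7 TPM at E6.5 it rose by 2.24-fold to 41.7, 39.9 and 40.4 TPM at E7.5 (log2 1.16 ± 0.18, adjusted p = 0.000166, limma), a difference that was 0.79 with median-of-ratios scaling.

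Tdg (ENSMUSG00000034674.18, chromosome 10, 82629828 to 82650799, plus strand), the glycosylase acting after the Tet enzymes, stayed between 29.4 and 64.1 TPM in all 15 embryo libraries. Its lowest mean was 34.9 ± 4.92 TPM at E4.5 and its highest 61.2 ± 4.69 TPM at E7.5 (SD, n = 3). The difference from E4.5 to E5.5 was 0.59 on the log2 scale (adjusted p = 0.000187, limma), and no step of Tdg reached the limit.

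The members' calls at each step are set beside the share of all tested genes that passed the same rule. From E3.5 to E4.5, 0 of the 9 rose and 1 fell, when 5.88% of all tested genes rose and 11.9% fell. From E4.5 to E5.5, 2 rose (Dnmt3b and Tet3) and 2 fell (Dnmt3l and Tet2), against 14.9% and 9.47% of all genes. None was called by limma from E5.5 to E6.5, where 0.715% of all genes rose and 0.48% fell, and at an unadjusted p under 0.05 the members counted 0 higher and 5 lower (8.8% and 17.8% of all genes). Below the size limit, 3 of these had an adjusted p under 0.05 (limma). They were Dnmt3a (-0.64, 0.00215), Dnmt3b (-0.41, 0.00909) and Dnmt3l (-0.60, 0.0284). Over the alternatives their adjusted p (limma) reached 0.0372, 0.0649 and 0.0978. From E6.5 to E7.5, 2 rose (Tet2 and Tet3) and 2 fell (Dnmt3b and Dnmt3l), against 10.6% and 1.94%. Over the whole span from E5.5 to E7.5, 1 rose (Tet2, 2.78-fold) and 3 fell (Dnmt3a, Dnmt3b and Dnmt3l), against 9.76% and 2.91%. At both E7.5 comparisons the balance of all genes depends on scaling, since 1265 rose and 231 fell from E6.5 as deposited but 684 and 404 with median-of-ratios scaling, and 1160 and 346 from E5.5 became 747 and 525. The median log2 change of the 9 members was 0.59 from E4.5 to E5.5, 0.04 from E3.5 to E4.5, -0.32 from E5.5 to E6.5, 0.21 from E6.5 to E7.5 and 0.20 from E5.5 to E7.5, beside 0.16, -0.10, -0.06, 0.31 and 0.26 for all tested genes.

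**Figure D2:**
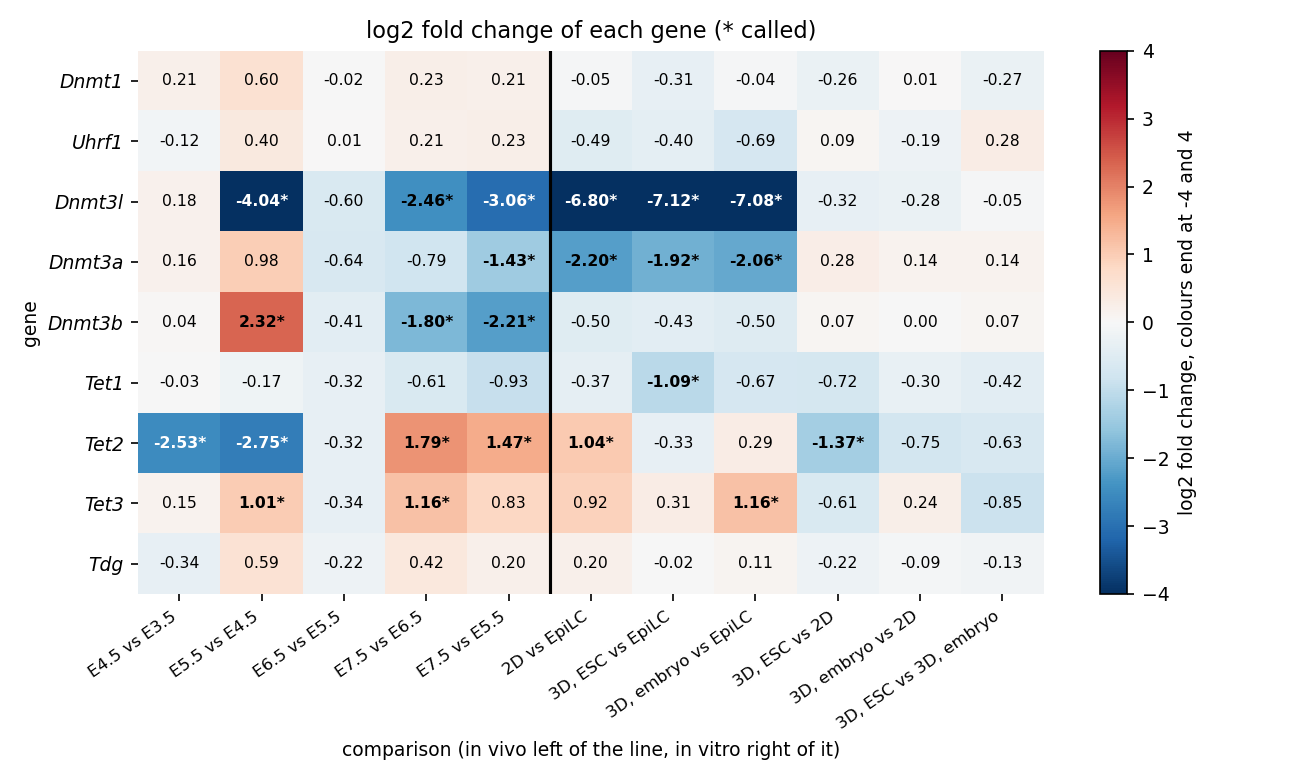
log2 fold change of log2(TPM + 1) for each member (rows) in each comparison (columns), printed in every cell, with calls starred and in vivo comparisons left of the line. The calls number 23 of 99 and are spread as 6 each for Dnmt3l and Tet2, 4 for Dnmt3a, 3 each for Dnmt3b and Tet3 and 1 for Tet1, while Dnmt1, Uhrf1 and Tdg have none.

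In culture, EpiLCs stood apart from all EpiSCs chiefly through Dnmt3l and Dnmt3a. Dnmt3l was at 105, 178 and 179.9 TPM in the 3 EpiLC libraries. In the 2D EpiSCs it was listed at 0.170, 0.133 and 0.866 TPM, in the ESC-derived 3D EpiSCs at 0, 0.220 and 0.0331 TPM, and in the embryo-derived 3D EpiSCs at 0, 0.289 and 0.0811 TPM. No EpiSC library came near an EpiLC library, and the 3 EpiSC states overlapped among themselves. Dnmt3l was lower than in EpiLCs, with differences of -6.80 (2D), -7.12 (ESC-derived) and -7.08 (embryo-derived) on the log2(TPM + 1) scale, sizes that depend on the pseudocount because the lower values are below it (adjusted p of 1.34e-09, 9.7e-10 and 6.94e-10, limma). EpiSC values were also below the 0.845 to 1.75 TPM of the E7.5 epiblast, with 1 exception in the 2D EpiSCs.

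Dnmt3a measured 188 and 191 TPM in EpiLC replicates 1 and 2 and 577 TPM in replicate 3. It was 48.8, 80.3 and 52.7 TPM in 2D EpiSCs, 60.8, 81.9 and 74.6 in ESC-derived and 55.5, 70.6 and 70.4 in embryo-derived 3D EpiSCs, 3 overlapping groups that lay wholly below EpiLCs. Dnmt3a was lower than in EpiLCs by 4.59-fold in 2D EpiSCs (log2 -2.20 ± 0.36, adjusted p = 0.000299, limma), by 3.78-fold in ESC-derived (log2 -1.92 ± 0.36, adjusted p = 0.00124, limma) and by 4.18-fold in embryo-derived 3D EpiSCs (log2 -2.06 ± 0.36, adjusted p = 0.000518, limma). Without EpiLC replicate 3 the Dnmt3a differences were -1.67, -1.39 and -1.53, in that order, and they kept their calls.

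Dnmt3b was the most abundant of the 9 in every culture. It read 1236, 1172 and 1507 TPM in EpiLCs and between 869 and 975 TPM in the 9 EpiSC libraries, whose 3 groups overlapped. The EpiSC levels lay between the E3.5 to E4.5 and the E5.5 to E6.5 values of the embryo, set side by side without a test because the library kits differ. The log2 differences from EpiLCs were -0.50 for 2D EpiSCs, -0.43 for ESC-derived and -0.50 for embryo-derived 3D EpiSCs, under the limit in each case.

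The maintenance pair differed less. Dnmt1 overlapped among all 4 cultures, with means from 121 ± 17.7 TPM in ESC-derived 3D EpiSCs to 151 ± 21.0 TPM in EpiLCs (SD, n = 3). Uhrf1 was 303, 322 and 291 TPM in EpiLCs, above every EpiSC library, and its log2 differences from EpiLCs were -0.49 (2D), -0.40 (ESC-derived) and -0.69 (embryo-derived, adjusted p = 0.000441, limma). In the embryo-derived 3D EpiSCs replicate 1 held 234 TPM of Uhrf1 against 168 and 172 TPM in the others.

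Among the Tet genes, Tet1 was again the leading form in culture. It measured 75.3, 52.3 and 68.4 TPM in EpiLCs, 50.4, 47.1 and 51.3 in 2D EpiSCs, 35.1, 42.7 and 43.4 in embryo-derived and 26.7, 25.5 and 38.8 in ESC-derived 3D EpiSCs, with overlap between the last 2 groups. Tet1 was lower in ESC-derived 3D EpiSCs than in EpiLCs by 2.13-fold (log2 -1.09 ± 0.17, adjusted p = 0.00034, limma). That Tet1 call was lost when near-identical replicates were averaged (-0.998) and without ESC-derived 3D EpiSC replicate 2 or EpiLC replicate 1 (-0.98 in both). Against 2D EpiSCs the difference was -0.72 ± 0.17 (adjusted p = 0.00619, limma).

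Tet2 was scarce in all cultures but higher in 2D EpiSCs, at 4.86, 4.54 and 3.80 TPM, than in any other culture library. ESC-derived 3D EpiSCs held 0.574, 0.663 and 2.41 TPM, where replicate 3 stood above the others. Tet2 was 2.59-fold lower there than in 2D EpiSCs on the TPM + 1 scale (log2 -1.37 ± 0.24, adjusted p = 0.0011, limma). Leaving out any of the 6 libraries kept this call, with values from -1.73 to -1.18. Over all alternatives the difference ran from -2.04 to -1.15. Embryo-derived 3D EpiSCs, at 2.60, 1.84 and 2.21 TPM, differed from 2D EpiSCs by -0.75 ± 0.24 (adjusted p = 0.0324, limma), inside the limit. EpiLCs held 1.74, 1.71 and 1.40 TPM, from which 2D EpiSCs differed by 1.04 ± 0.24 (adjusted p = 0.0029, limma), a call that was lost with median-of-ratios scaling (0.89) and without EpiLC replicate 3 or 2D EpiSC replicate 1 (0.98 in both). Primitive and visceral endoderm genes summed to 53.1 to 68.8 TPM in 2D EpiSCs, 2.03 to 15.5 in ESC-derived 3D EpiSCs and 7.04 to 11.0 in EpiLCs. Embryo-derived 3D EpiSCs held 14.9 to 29.2. Trophectoderm, mesoderm and post-implantation epiblast sums were also higher in 2D than in ESC-derived 3D EpiSCs and EpiLCs. These were 16.2 to 25.5, 34.9 to 43.1 and 754 to 820 TPM in 2D EpiSCs. In ESC-derived 3D EpiSCs they were 3.34 to 12.1, 15.8 to 29.5 and 442 to 478. In EpiLCs they were 3.82 to 5.27, 1.91 to 3.83 and 417 to 450. Naive pluripotency and epiblast sums were not higher in 2D EpiSCs. The part of each list was not tested.

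Tet3 separated the cultures by another order. Embryo-derived 3D EpiSCs (13.6, 17.8 and 17.8 TPM) overlapped 2D EpiSCs (16.3, 14.3 and 10.8 TPM), and ESC-derived 3D EpiSCs (7.60, 8.43 and 9.87 TPM) overlapped EpiLCs (8.38, 6.25 and 5.83 TPM). Tet3 was higher in embryo-derived 3D EpiSCs than in EpiLCs by 2.23-fold (log2 1.16 ± 0.17, adjusted p = 0.000151, limma). The 2D EpiSCs differed from EpiLCs by 0.92 ± 0.17 (adjusted p = 0.000743, limma), which became 1.00 with a pseudocount of 0.1 and 1.06 or 1.07 without EpiLC replicate 1 or 2D EpiSC replicate 3. Between the 2 kinds of 3D EpiSC, Tet3 differed by -0.85 ± 0.17 (ESC-derived minus embryo-derived, adjusted p = 0.00673, limma, or 0.135 with near-identical replicates averaged) with no overlap of libraries. Tdg overlapped among all 4 cultures, its libraries reading between 64.0 and 85.5 TPM.

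**Figure D3:**
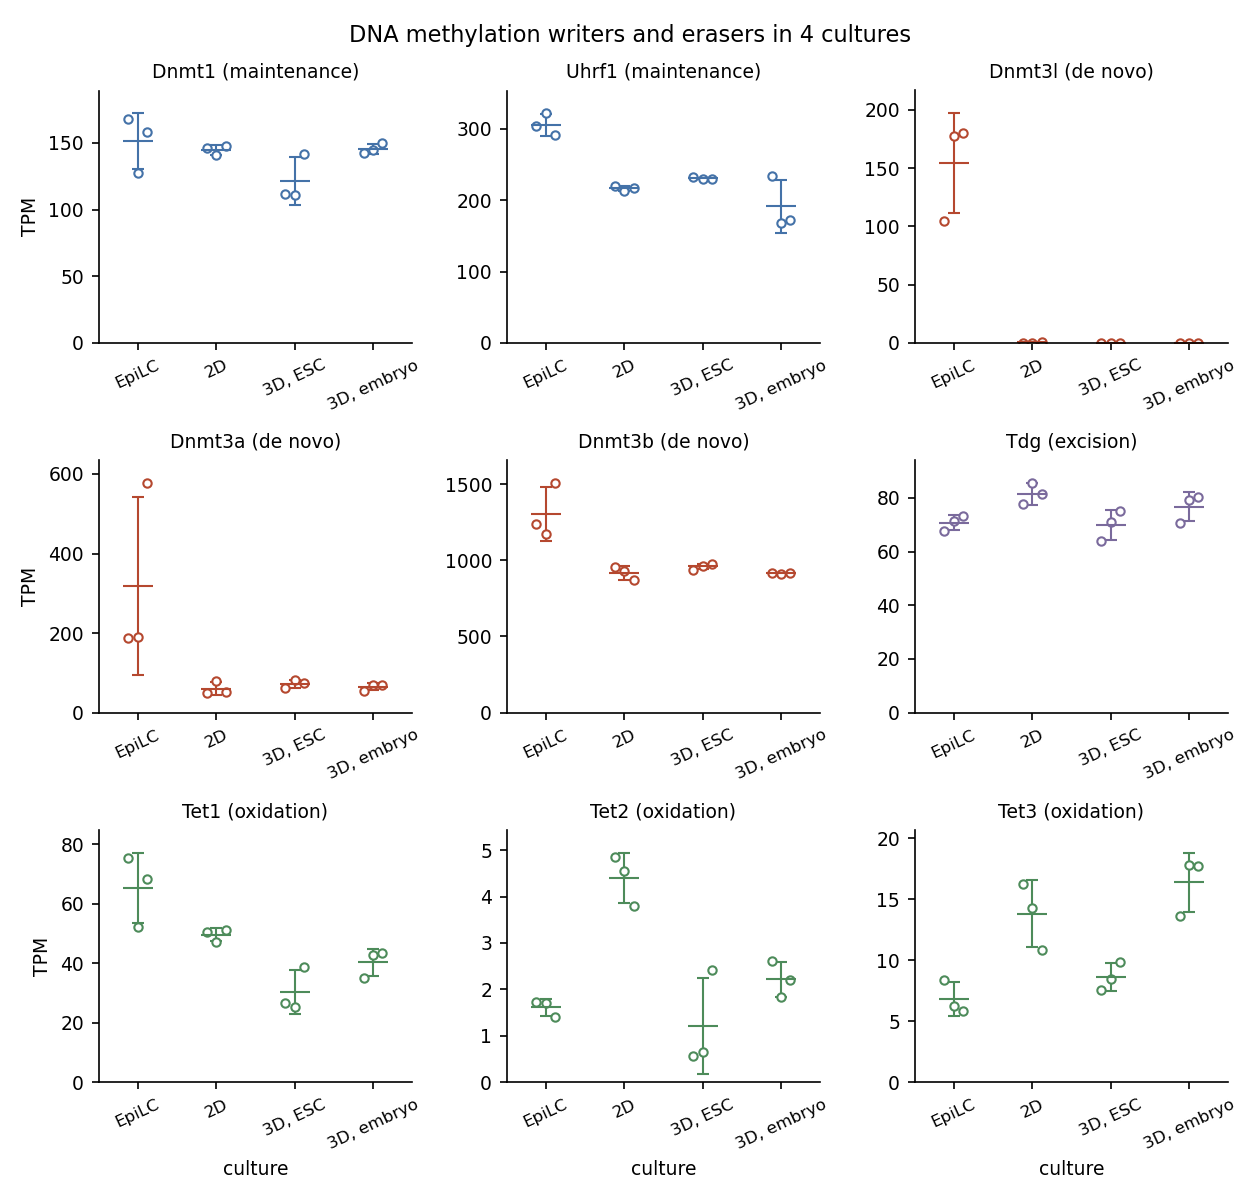
TPM of the 9 members (vertical axis from 0, 1 panel per gene) in the 12 in vitro libraries by culture, with points for libraries and a bar and whiskers for mean ± SD of 3. Dnmt3l is at 105 to 179.9 TPM in EpiLCs and below 1 TPM in all 9 EpiSC libraries, and Dnmt3a replicate 3 of the EpiLCs (577 TPM) stands above the other EpiLC libraries.

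Against the whole in vitro table, the members were called as follows. Between ESC-derived 3D and 2D EpiSCs 0 of 9 were higher and 1 lower (Tet2), where 0.633% of all tested genes were higher and 9.25% lower. Between embryo-derived 3D and 2D EpiSCs limma called 0, against 1.07% higher and 7.75% lower of all genes, and 1 member was lower and 0 higher at an unadjusted p under 0.05 (28.6% and 14.1% of all genes). ESC-derived 3D EpiSCs had 0 members higher and 3 lower than EpiLCs (5.33% and 7.11% of all genes), embryo-derived 3D EpiSCs 1 higher and 2 lower (10.5% and 8.28%), and 2D EpiSCs 1 higher and 2 lower (15.2% and 5.14%). The 3 comparisons share the EpiLC libraries and so are not independent. Between the 2 kinds of 3D EpiSC limma called 0 members, against 1.98% of all genes in each direction, and at an unadjusted p under 0.05 there were 1 higher and 4 lower (10.8% and 26.7% of all genes). With median-of-ratios scaling the higher and lower calls over all genes went from 1756 and 593 to 1366 and 752 for 2D EpiSCs against EpiLCs, from 1215 and 956 to 1007 and 1071 for embryo-derived 3D EpiSCs against EpiLCs, from 73 and 1068 to 134 and 725 for ESC-derived 3D against 2D EpiSCs, and from 228 and 229 to 271 and 148 between the 3D EpiSCs. Without ESC-derived 3D EpiSC replicate 3 the last pair was 237 and 431. The median log2 difference of the members from EpiLCs was -0.40 (ESC-derived), -0.50 (embryo-derived) and -0.37 (2D), beside 0.01, 0.10 and 0.18 for all tested genes. Against 2D EpiSCs it was -0.26 (ESC-derived) and -0.09 (embryo-derived) beside -0.21 and -0.08, and between the 3D EpiSCs -0.13 beside -0.12.

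Shares within a library do not depend on scaling and are given as a description. Dnmt3b made up 80.0% ± 1.06 of the summed Dnmt3a and Dnmt3b transcripts at E3.5 and 78.7% ± 0.708 at E4.5, then 90.3% ± 0.895 at E5.5, 91.6% ± 0.314 at E6.5 and 84.5% ± 1.08 at E7.5 (SD, n = 3). It was 93.8% ± 1.59 in 2D, 93.0% ± 0.881 in ESC-derived 3D and 93.3% ± 0.848 in embryo-derived 3D EpiSCs, and 81.7% ± 8.13 in EpiLCs. The mixture of Tet transcripts turned over more completely. Tet2 was the larger part at E3.5 (52.2% ± 1.17, with Tet1 at 44.1% ± 1.18), Tet1 led at E4.5 (76.8% ± 3.71), E5.5 (79.9%) and E6.5 (80.3%), and at E7.5 Tet3 reached 40.2% ± 0.318 beside 51.1% ± 0.584 for Tet1. In culture Tet1 took 88.5% in EpiLCs and between 68.5% and 75.4% in EpiSCs.

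The sum of Dnmt3a and Dnmt3b relative to the sum of the 3 Tet genes gives a transcript ratio of writers to erasers. On the log2 scale it was 1.03 ± 0.06 at E3.5, 1.93 ± 0.18 at E4.5, 4.28 ± 0.05 at E5.5, 4.18 ± 0.26 at E6.5 and 2.46 ± 0.06 at E7.5. Between E4.5 and E5.5 the de novo sum went from 555 to 2416 TPM and the Tet sum from 146 to 124 TPM. Among cultures the ratio was 4.45 ± 0.37 in EpiLCs, 3.85 ± 0.08 in 2D EpiSCs, 4.06 ± 0.16 in embryo-derived and 4.71 ± 0.30 in ESC-derived 3D EpiSCs. Transcript ratios are not enzyme activities, and methylation itself was not analysed here.

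**Figure D4:**
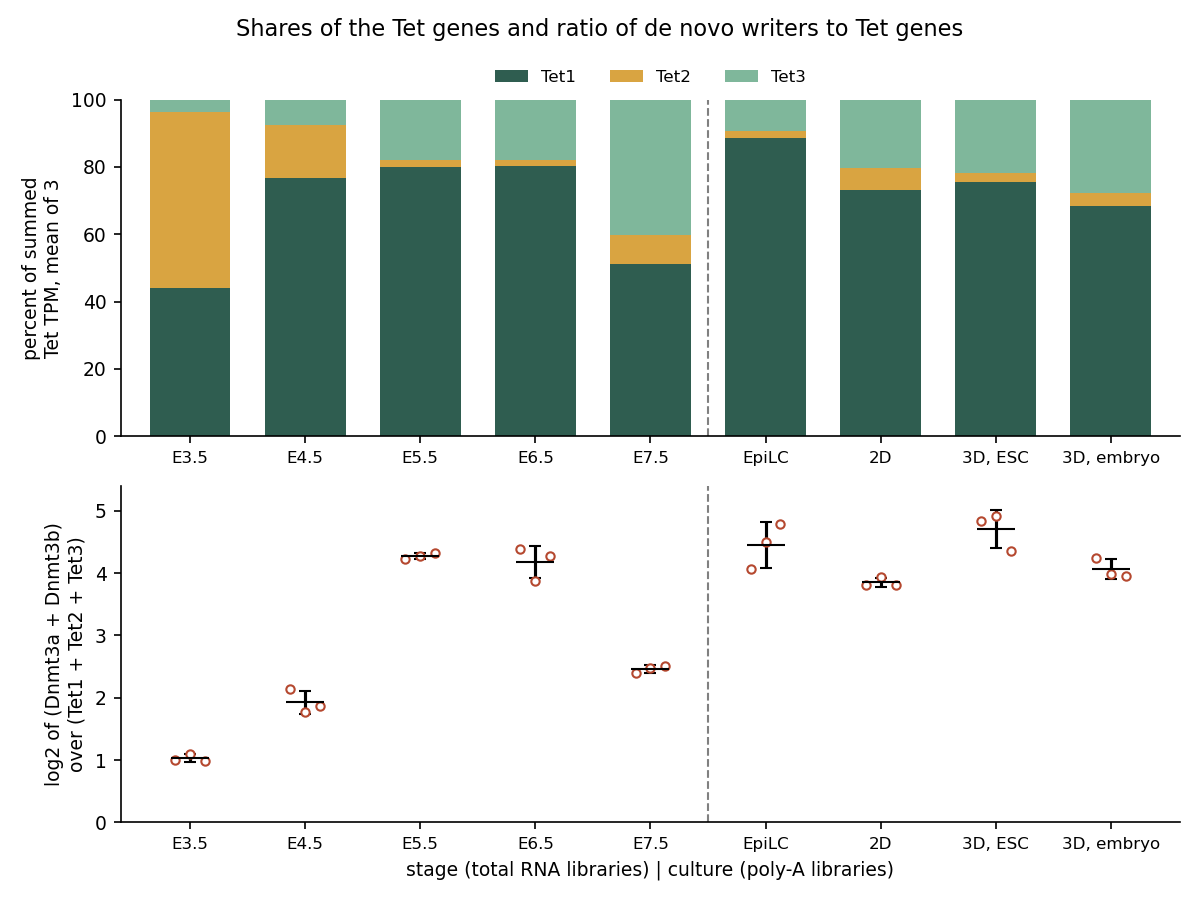
Upper panel, stacked bars of the mean percent of summed Tet TPM held by Tet1, Tet2 and Tet3 in each of the 9 groups. Lower panel, log2 ratio of summed Dnmt3a and Dnmt3b TPM to summed Tet TPM, with points for libraries and mean ± SD of 3. The bars show Tet2 at 52.2% of Tet transcripts at E3.5 and Tet3 at 40.2% at E7.5, and the log2 writer-to-eraser ratio steps from 1.93 at E4.5 to 4.28 at E5.5.

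Dnmt3b has a close relative, Dnmt3c (chromosome 2, 153696652 to 153729907), a rodent gene next to it that arose by duplication. Of the 50-base words in Dnmt3c transcripts 23.6% also occur in those of Dnmt3b, and 9.81% of the Dnmt3b words occur in Dnmt3c, so reads in the shared parts may have been split between them. Dnmt3c was at 43.7 TPM at E5.5 and 91.4 TPM at E6.5, where Dnmt3b had 2182 and 1643 TPM, and at 7.65, 7.62 and 19.3 TPM at E3.5, E4.5 and E7.5. The processed copy Tdg-ps shares 56.0% of its 50-base words with Tdg and was at 0.542 to 2.25 TPM in vivo and 7.41 to 9.19 TPM in vitro, as group means. Dnmt3a-ps1 and Dnmt3l-ps1, other copies by name, share no such word with their namesakes. Uhrf1 overlaps no annotated gene. Besides Aire, the genes that overlap a member were Mir7081 (Dnmt1), Dnmt3aos (Dnmt3a), Dnmt3bos (Dnmt3b), Gm48353 and Gm26479 (Tet1), Gm42567 (Tet2), Mir6374, 5430434F05Rik and B230319C09Rik (Tet3) and Glt8d2 (Tdg), and the highest of these in any library was Mir7081 at 7.30 TPM.

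The other genes of the pathway were taken as 5 lists. Among 9 methyl-CpG readers, of which 6 were tested, Uhrf2 (a relative of Uhrf1) rose from 12.7, 10.8 and 15.5 TPM at E4.5 to 36.5, 39.9 and 35.7 at E5.5 (log2 1.47 ± 0.12, adjusted p = 1.79e-07, limma) and again to 88.2, 88.1 and 88.1 at E7.5 (1.32 from E6.5 and 1.22 from E5.5, or 0.94 and 0.91 with median-of-ratios scaling). Zbtb38 was called as higher at E5.5 than at E4.5 at low levels (log2 1.44 ± 0.25), making 2 of 6 against 14.9% of all genes, and no reader was called in another comparison. The median log2 change of the readers from E4.5 to E5.5 was 0.25, beside 0.16 for all genes.

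Partners and recruiters of the enzymes, 14 genes with 12 tested in vitro and 13 in vivo, changed mainly through Dppa3. Dppa3, a maternal factor that hinders Uhrf1, was at 343, 388 and 333 TPM at E3.5 and at 31.4, 35.8 and 35.1 TPM at E4.5 (log2 -3.34 ± 0.21, adjusted p = 1.36e-08, limma). It fell again into E5.5 (-2.17) and E7.5 (-1.35 from E6.5), and it was lower than in EpiLCs (8.39, 6.82 and 10.3 TPM) in each EpiSC state. There it was listed at 0 in all 3 embryo-derived libraries and in 2 of 3 libraries of the others, with at most 0.0942 TPM, so the log2(TPM + 1) differences of -3.19, -3.19 and -3.23 (2D, ESC-derived and embryo-derived) are set by the pseudocount. Prdm14, which represses de novo methyltransferases in naive cells, fell at E4.5 (-1.79), when Hells, a chromatin remodeller needed for methylation, rose (1.03), so that 1 rose and 2 fell of 13 against 5.88% and 11.9% of all genes. At E5.5 Zfp57, which guards imprinted regions, fell (-2.18) and Cdca7, the partner of Hells, rose (1.27), which with Ehmt1 and Dppa3 makes 2 higher and 2 lower of 13, against 14.9% and 9.47% of all genes. In culture Hells was lower than in EpiLCs in the ESC-derived (-1.36) and the embryo-derived (-1.24) 3D EpiSCs, and Zfp57 was lower in ESC-derived 3D than in 2D EpiSCs (-1.15). The list's median was -0.29 from E3.5 to E4.5 and 0.14 from E4.5 to E5.5, beside -0.10 and 0.16 for all genes.

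Among 15 excision and repair genes, 14 tested in vitro and 12 in vivo, the Gadd45 stress-response genes moved most. At E4.5 Gadd45g (2.55), Gadd45b (1.41) and Gadd45a (1.08) rose, 3 of 12 with 0 lower, against 5.88% and 11.9% of all genes. At E5.5 Gadd45g fell from 58.4, 71.5 and 61.7 TPM to 2.68, 2.82 and 2.91 TPM (log2 -4.09 ± 0.14, adjusted p = 2.56e-11, limma), Gadd45b fell (-2.96) and the glycosylase Neil3 rose (2.14), with Neil3 listed at 0 in 1 E4.5 library. Neil3 rose again at E7.5 (1.33 from E6.5, or 0.97 with median-of-ratios scaling), and Gadd45g (1.35) and Gadd45b (1.23, or 0.97 with that scaling) were higher at E7.5 than at E5.5. In culture Gadd45b was at 47.5, 46.6 and 55.5 TPM in 2D EpiSCs and at 4.55, 5.29 and 2.45 TPM in EpiLCs (log2 3.36 ± 0.27, adjusted p = 1.03e-06, limma), and it was lower in ESC-derived (-3.40) and embryo-derived (-4.35) 3D than in 2D EpiSCs. Gadd45g was lower than in EpiLCs in all 3 EpiSC states (-1.69, -2.55 and -2.86 for 2D, ESC-derived and embryo-derived), as was the cytidine deaminase gene Apobec1 (-1.47, -1.84 and -2.15). The list's median was 0.10 from E3.5 to E4.5 and -0.05 from E4.5 to E5.5, beside -0.10 and 0.16, and -0.22 for 2D EpiSCs against EpiLCs, beside 0.18.

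Of 13 genes of methyl donor and cofactor metabolism, all tested, the mitochondrial folate enzymes Mthfd2 and Shmt2 were the only ones called between 3D and 2D EpiSCs, 2 of 13 higher in each comparison against 0.633% (ESC-derived) and 1.07% (embryo-derived) of all genes. Mthfd2 was higher by 1.73 (ESC-derived) and 1.92 (embryo-derived) and Shmt2 by 1.33 and 1.80 on the log2 scale. Mat2a, which makes the methyl donor S-adenosylmethionine, was lower than in EpiLCs in 2D (-1.26) and embryo-derived 3D EpiSCs (-1.08), where Shmt2 was higher (1.37). In the embryo Idh2 fell at E4.5 (-1.05) and Mtrr at E5.5 (-1.07). The list's medians for ESC-derived and embryo-derived 3D against 2D EpiSCs were -0.12 and 0.16, beside -0.21 and -0.08.

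S phase genes were followed because Dnmt1 and Uhrf1 act at replication forks. Of 15, limma called 0 in each of the 11 comparisons. Counts at an unadjusted p under 0.05 are set beside the share of all tested genes. Against EpiLCs the embryo-derived 3D EpiSCs had 0 S phase genes higher and 12 lower (36.6% and 24.1% of all genes), with 0 and 10 in 2D EpiSCs (42.4% and 20.6%) and 0 and 5 in ESC-derived 3D EpiSCs (26.4% in each direction). Against 2D EpiSCs 7 were higher and 0 lower in ESC-derived (12.5% and 41.4%) and 2 and 6 in embryo-derived 3D EpiSCs (14.1% and 28.6%), and between the 3D cultures 8 were higher and 0 lower on the ESC-derived side (10.8% and 26.7%). In the embryo 6 were higher and 2 lower at E4.5 than at E3.5 (23% and 36.3%), 8 and 2 at E5.5 (41.1% and 24.1%), 0 and 1 at E6.5 (8.8% and 17.8%) and 9 and 0 at E7.5 (51.2% and 8.11%), each against the stage before, with 7 and 2 from E5.5 to E7.5 (45.9% and 11.2%). Their median log2 change ran from -0.39 (embryo-derived 3D EpiSCs against EpiLCs, beside 0.10 for all genes) to 0.26 (between the 3D cultures, beside -0.12), and it was 0.23 from E6.5 to E7.5, beside 0.31.

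Genes with a pattern like that of each member were ranked by Pearson's r of log2(TPM + 1) over the 15 in vivo libraries, which share their stages, so that r describes these libraries only. Nearest to Dnmt3l were Bin2 (r = 0.993), Dppa5a (0.992) and Zfp979 (0.991). Over the 12 in vitro libraries their r was 0.996, 0.994 and 0.974. Those libraries split into EpiLCs, at 105 to 179.9 TPM of Dnmt3l, and EpiSCs, at 0.866 TPM or less. Such an r mainly tells EpiLCs from EpiSCs and is no separate check of likeness. Nearest to Dnmt3b were Bcl11b (0.978), Tcfl5 (0.976) and Kctd16 (0.975), of which Bcl11b had an r of -0.753 and Tcfl5 of 0.726 in vitro, and Kctd16 was not tested there. Nearest to Tet2 were Frrs1l (0.996), Wipf1 (0.995) and Mib2 (0.989). For Dnmt1 they were Ank3, Top1 and Sfpq, for Uhrf1 Cat, Sfmbt1 and Selenon, for Dnmt3a Rbpms2, Usf1 and Nefl, for Tet1 Dppa4, Jade1 and Cdh1, for Tet3 they included BC067074 and Ralgps2, and for Tdg Magi1, Spats2l and Tjp1. Likeness in the embryo did not always carry over, since Nefl had an r of 0.938 with Dnmt3a in vivo and of -0.862 in vitro, whereas Cdh1 had 0.950 and 0.774 with Tet1. In vitro r was 0.058, -0.102 and -0.821 for the genes nearest Uhrf1. It was 0.138, 0.558 and 0.102 for those nearest Dnmt1. With Tet2, Wipf1 had 0.588 and Mib2 0.094 in vitro, where Frrs1l was not tested.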

How the data were processed

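The authors deposited a table of TPM values from StringTie, after trimming with cutadapt 2.4 and alignment with STAR to mm10 with GENCODE VM19. Each column sums to 1e+06, so depth is lost, and the strand setting of the counting is not stated. The study tested raw counts, which were not used here, so log2(TPM + 1) was tested with limma 3.58.1 (R 4.3.3), in 1 fit of the 12 in vitro and another of the 15 in vivo libraries.

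Lines sharing a gene identifier (12 identifiers) were summed, and empty cells (56 lines) were read as 0. Autosomal protein-coding genes (GENCODE vM21 biotypes, 99.9% of identifiers found) above 2 TPM in at least 3 libraries were tested, 11541 in vitro and 11880 in vivo. Benjamini-Hochberg adjustment covered all tested genes of a comparison, and a call required both an adjusted p under 0.05 and a log2 difference larger than 1 in size. Tested on simulated data made from the real libraries, with 200 genes changed by 2 on the log2 scale, the fit recovered 97% in vitro and 97.5% in vivo. Promoters came from RefSeq (GRCm38.p6), where 9 of 9 members matched, and shared 50-base words from GENCODE vM21 transcripts.

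The members and the lists were chosen with earlier results of these data known. All 9 members were named, with up to 3 called genes of each list per comparison, by largest fold change, and the 3 genes nearest each member by Pearson's r. Of the genes this rule names, 2 are not reported here. Alternatives covered the pseudocount (0.1), no filter, all gene types, median-of-ratios scaling, a variance trend, only the compared groups, averaged near-identical replicates (median absolute log2 difference under 0.1), a replicate block and leaving out each library. For list genes they were added after seeing the data. Within-library ratios were described without a test, and outliers cannot be tested with 3 libraries per group.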

Additional observations from a re-analysis of the deposited data

Results flagged for a closer look

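The difference of Tet3 from 2D EpiSCs was compared between the origins of the 3D culture. It was -0.61 ± 0.17 on the log2 scale for ESC-derived and 0.24 for embryo-derived 3D EpiSCs, and the difference between both, -0.85 ± 0.17, had an adjusted p of 0.00673 (limma) without reaching the size set for a call. Over the alternatives the adjusted p of this Tet3 difference ran from 0.00342 to 0.135 (limma), the last with near-identical replicates averaged, where it no longer passed. All 3 ESC-derived libraries (7.60, 8.43 and 9.87 TPM) were below all 3 embryo-derived libraries (13.6, 17.8 and 17.8 TPM). Marker sums of other cell types were also lower in the ESC-derived libraries for mesoderm (15.8 to 29.5 against 37.8 to 79.1 TPM, with 1 of 2 tested genes called) and lower or overlapping for primitive and visceral endoderm (2.03 to 15.5 against 14.9 to 29.2 TPM, with 2 of 5 called), and their part was not tested. Origin and genetic background cannot be told apart here.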

How the results depend on the processing

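The number of members called per comparison stayed within 1.5 times its value, in 154 of 154 refits, a wide limit for such small counts. Leaving out single libraries moved it between 2 and 4 for 2D EpiSCs against EpiLCs. It moved between 2 and 3 for ESC-derived 3D EpiSCs against EpiLCs and between 4 and 5 from E4.5 to E5.5. Of the refitted differences of single members, 1333 of 1386 kept direction and call. Of the 23 calls, 4 were lost in some alternative (Tet1 between ESC-derived 3D EpiSCs and EpiLCs, Tet2 between 2D EpiSCs and EpiLCs, and Tet3 into E5.5 and into E7.5, with values beside each result), and 4 other differences became calls: Tet3 in 2D EpiSCs against EpiLCs, Dnmt3a into E5.5, and with median-of-ratios scaling Dnmt3a from E6.5 to E7.5 (-1.18) and Tet1 from E5.5 to E7.5 (-1.23). The causes were not tested. Calls over all genes moved by over 1.5 times between the 3D cultures (457 to 719 with a pseudocount of 0.1 and 285 with averaged replicates), from E5.5 to E6.5 (142 to 262 with that pseudocount and 316 with all gene types) and from E6.5 to E7.5 (1496 to 2365 with all gene types).

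Signs changed for 21 differences, of which 0 were calls and the largest was 0.23. With median-of-ratios scaling Tdg took 0.0024 (ESC-derived 3D against 2D EpiSCs), 0.0017 (embryo-derived 3D against 2D EpiSCs), -0.0010 (embryo-derived 3D against EpiLCs), -0.0028 (2D against EpiLCs), 0.00069 (between the 3D cultures) and -0.10 (E7.5 against E5.5). Under the same scaling Dnmt3b took 0.085 (embryo-derived 3D against 2D EpiSCs), Tet1 0.080 (E4.5 against E3.5), Dnmt1 0.056 (E6.5 against E5.5), -0.15 (E7.5 against E6.5) and -0.10 (E7.5 against E5.5), and Uhrf1 -0.17 and -0.083 for the last 2 steps. Averaging near-identical replicates gave -0.0082 for Dnmt1 and 0.017 for Dnmt3b (embryo-derived 3D against 2D EpiSCs) and 0.0061 for Tdg (ESC-derived 3D against EpiLCs).

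Leaving out single libraries moved Dnmt1 between -0.015 and 0.022 and Dnmt3b between -0.043 and 0.024 (embryo-derived 3D against 2D EpiSCs), Tdg between -0.071 and 0.042 (ESC-derived 3D against EpiLCs), Dnmt1 between -0.16 and 0.036 (embryo-derived 3D against EpiLCs) and between -0.17 and 0.029 (2D against EpiLCs), and Dnmt3l between -0.14 and 0.055 (between the 3D cultures). From E3.5 to E4.5 it moved Dnmt3b between -0.0082 and 0.087, Tet1 between -0.095 and 0.058 and Tet3 between -0.010 and 0.42, and from E5.5 to E6.5 Dnmt1 between -0.082 and 0.039 and Uhrf1 between -0.011 and 0.049.

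With the replicate block the 11 comparisons had 1, 0, 3, 3, 3, 0, 1, 4, 0, 4 and 4 members called, as without it. Samples sharing a number did not deviate together on average (mean r of -0.0299 over 18 pairs in vitro and -0.0166 over 30 in vivo). Single pairs in vitro reached 0.16 with the same number and 0.17 with different numbers. With 3 libraries per group these means cannot exclude that some numbers pair samples. Of 686 refits of named list genes 672 kept their call. The others concerned Zfp57 in ESC-derived 3D against 2D EpiSCs (-0.94 with scaling, -0.99 without ESC-derived 3D EpiSC replicate 2), at E4.5 Idh2 (-0.94 with scaling, -0.97 without E4.5 replicate 2), Hells (0.999 without E3.5 replicate 3, 0.996 and 0.97 without E4.5 replicates 1 and 2) and Gadd45a (0.93 without E4.5 replicate 2), at E5.5 Mtrr (-0.98 without E4.5 replicate 1), and at E7.5 Uhrf2, Gadd45b and Neil3 with scaling and Neil3 with a pseudocount of 0.1 (1.44, with an adjusted p above the threshold). TPM gives no depth, so no counting error can be set on the low values of Dnmt3l and Tet2 in culture.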
